A study of Mus musculus with 10 samples.

Results

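The regions described here were the gene-end peaks of chromatin accessibility that gave more reads in mouse lung than in mouse brain. They were 402 of the 37513 regions of a table of ATAC-seq counts, and lay at 379 protein-coding genes. In ATAC-seq the transposase Tn5 inserts sequencing adapters into open chromatin, so that the number of reads in a region reports how accessible it was. Reads in each library were scaled to 1000000 reads in nuclear regions (RPM). A region was a member if it was autosomal, had at least 10 reads in each of the 3 lung libraries of 200 nuclei, had its centre within 1000 bp of either end of a protein-coding gene, and had a ratio of (mean lung RPM + 1) to (mean brain RPM + 1) of at least 2.5. The members were thus chosen by their measured reads, both the minimum and the ratio, so every lung-over-brain difference of the members below is a description, supports nothing, and is no test of them.

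All libraries came from wild-type C57BL/6J mice, an inbred laboratory strain, and from fresh frozen sections in which Tn5 had acted before nuclei were cut out by laser. There were 3 lung libraries and 2 brain libraries of about 200 nuclei, taken as 10 larger captured areas, and 3 lung libraries and 2 brain libraries of 50 nuclei captured one by one. Nuclei were picked at random, so each library mixed the cell types of its tissue, and the number of nuclei and the way of capture changed together. The labels speak of technical replicates and name no separate animals, so the spreads and p-values below measure only the differences between these libraries, which may be technical. In such mixed samples, more cells of a type and more open chromatin per cell cannot be told apart.

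Active promoters lie in open chromatin. Many genes used in all cells have promoters rich in CpG dinucleotides that are open nearly everywhere, while genes used in few cell types often have CpG-poor promoters that open in those cells. The lung holds a dense capillary endothelium, flat alveolar type 1 cells that exchange gas, surfactant-making alveolar type 2 cells, mesenchymal cells and resident lymphocytes and macrophages. Interferon-stimulated genes encode antiviral proteins, and many of their promoters carry the interferon-stimulated response element (ISRE), a short sequence through which interferon signals act on transcription. ETS factors bind motifs with a GGAA core and include regulators of endothelial and blood cells.

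Of the 402 members, 154 lay over the promoter window of their own gene in the RefSeq GRCm38.p6 table (the same assembly as mm10), which runs from 250 bases before to 50 after the start site. The sequences below are the 250 bases before the start of 7 member genes, 5′ to 3′ on the gene's strand, in mm10. The first 3 genes are interferon-stimulated and were chosen after their values were seen, to show the ISRE, which was searched as GAAA, any 2 bases and GAAA on either strand, in capitals. The matches began at -120 in Rsad2 (viperin, an antiviral enzyme), at -130 and, overlapping it, at -124 in Bst2 (tetherin, which holds budding virions on the cell), and at -55 in Lgals9 (galectin-9, a secreted sugar-binding protein), counted from the start site.
Rsad2 (chr12:26456453-26456702, minus strand): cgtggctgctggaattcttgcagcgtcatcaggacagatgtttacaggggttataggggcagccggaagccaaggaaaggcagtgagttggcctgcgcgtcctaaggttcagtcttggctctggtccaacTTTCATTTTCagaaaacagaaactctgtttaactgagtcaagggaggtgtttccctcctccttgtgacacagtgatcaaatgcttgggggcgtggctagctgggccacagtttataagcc
Bst2 (chr8:71537473-71537722, minus strand): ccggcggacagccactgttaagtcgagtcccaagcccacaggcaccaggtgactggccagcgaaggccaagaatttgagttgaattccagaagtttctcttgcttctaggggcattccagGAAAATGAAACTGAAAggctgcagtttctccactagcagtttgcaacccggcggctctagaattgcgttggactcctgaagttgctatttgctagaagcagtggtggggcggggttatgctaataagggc
Lgals9 (chr11:78984925-78985174, minus strand): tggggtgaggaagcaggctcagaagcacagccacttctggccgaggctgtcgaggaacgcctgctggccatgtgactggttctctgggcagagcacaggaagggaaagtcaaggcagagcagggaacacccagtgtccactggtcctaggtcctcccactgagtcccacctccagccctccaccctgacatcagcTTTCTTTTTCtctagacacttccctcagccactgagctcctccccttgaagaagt

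The next 3 sequences carry the ETS motif ACAGGAA or its reverse complement, in capitals, and the last shows GC boxes (GGGCGG), which SP and KLF factors bind. The ETS match began at -209 in Tie1 (an endothelial receptor kinase), at -151 in Gimap6 (a GTPase of the GIMAP family of lymphocytes and endothelium) and at -68 in Calcrl (the receptor subunit for adrenomedullin, an endothelial peptide hormone). In Klf2, a transcription factor induced by blood flow in endothelium, the GC boxes began at -214 and -195. All 9 matches in the 7 genes lay inside the accessible region itself.
Tie1 (chr4:118489850-118490099, minus strand): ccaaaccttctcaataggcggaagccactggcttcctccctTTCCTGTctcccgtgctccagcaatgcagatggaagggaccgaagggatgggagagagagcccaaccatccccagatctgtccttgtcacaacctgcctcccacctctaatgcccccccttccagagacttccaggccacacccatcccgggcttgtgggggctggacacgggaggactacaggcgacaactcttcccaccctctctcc
Gimap6 (chr6:48708245-48708494, minus strand): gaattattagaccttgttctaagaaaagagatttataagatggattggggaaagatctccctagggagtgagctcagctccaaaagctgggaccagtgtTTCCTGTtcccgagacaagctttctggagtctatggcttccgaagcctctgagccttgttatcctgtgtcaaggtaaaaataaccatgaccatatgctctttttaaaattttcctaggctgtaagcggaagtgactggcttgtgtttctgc
Calcrl (chr2:84425267-84425516, minus strand): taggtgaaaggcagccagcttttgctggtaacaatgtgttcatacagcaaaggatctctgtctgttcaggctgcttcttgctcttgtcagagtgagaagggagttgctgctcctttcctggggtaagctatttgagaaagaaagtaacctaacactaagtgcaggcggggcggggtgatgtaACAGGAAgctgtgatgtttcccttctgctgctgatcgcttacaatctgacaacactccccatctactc
Klf2 (chr8:72318812-72319061, plus strand): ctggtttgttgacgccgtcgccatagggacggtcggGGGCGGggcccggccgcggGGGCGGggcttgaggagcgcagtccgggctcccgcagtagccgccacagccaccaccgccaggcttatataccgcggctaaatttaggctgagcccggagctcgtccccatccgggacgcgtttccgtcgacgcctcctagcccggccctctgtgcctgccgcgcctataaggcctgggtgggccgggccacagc

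The 402 members made up 4.16% of the 9670 autosomal gene-end regions with the read minimum, out of 13402 autosomal gene-end regions in all. In the opposite direction, 464 of the 9670 regions (4.8%) had a ratio of at most 1/2.5. The members' ratio had a median of 3.26, with 261 members at 3 or more and 52 at 5 or more. Mean lung RPM of the members ranged between 7.05 and 445 with a median of 30.7, and mean brain RPM between 0 and 158 with a median of 8.13. The last regions inside the threshold were at Sec14l4 (2.504), Tagln2 (2.503) and Il4ra (2.5), and the first outside it were at Pdlim5 (2.499), Ccdc114 (2.489) and Itgal (2.489), so the threshold falls in a continuous range of ratios. All 6 lung libraries lay above all 4 brain libraries in 183 of the 402 members (45.5%), against 318 of the 9670 regions (3.29%), members included.

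**Figure D1:**
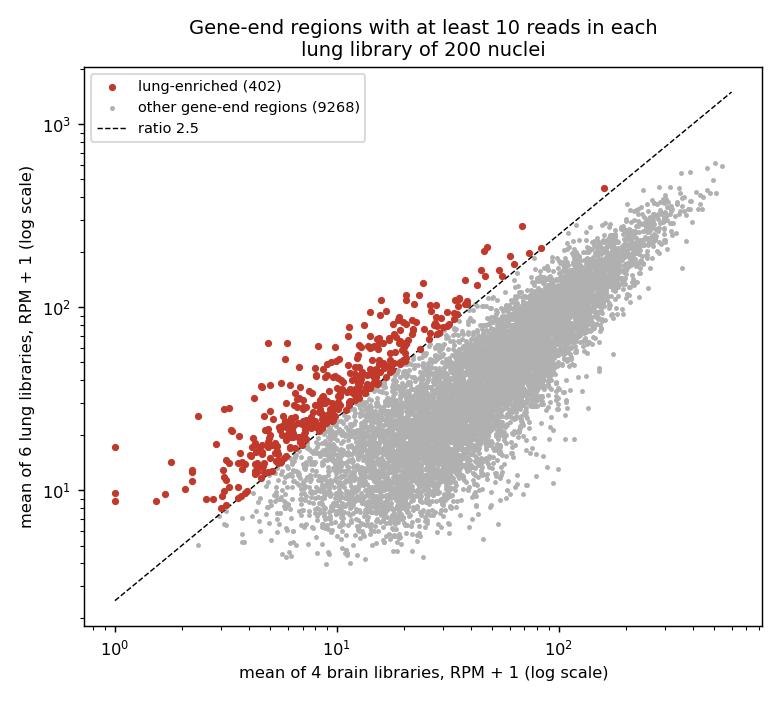
Mean RPM + 1 of the 6 lung libraries (vertical, log scale) against that of the 4 brain libraries (horizontal, log scale) for each of the 9670 gene-end regions, with the 402 members in red, the other 9268 in grey and the ratio of 2.5 as a dashed line. The members lie above the line by the rule and span lung means of 7.05 to 445 RPM.

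Depth limited what could be seen in single members. Values written with ± below are means with the SD over the 6 lung or the 4 brain libraries. Reads in nuclear regions numbered 340697 to 3075377 in lung libraries and 319307 to 465489 in brain libraries, so that 1 read was worth 0.325 to 2.93 RPM in lung against 2.15 to 3.13 RPM in brain. The mitochondrial genome took 24.7 to 58.0% of all reads in lung libraries and 93.4 to 95.8% in brain libraries. The members held 1.54 to 2.09% of nuclear reads in lung and 0.392 to 0.543% in brain. In brain, 3 members had no read in any library and 24 had 1 to 3 reads. The lung libraries of 50 nuclei, replicates 2 and 3, lacked any read in 59 and 52 members, and 100 members (24.9%) were at 0 in at least 1 of them, as were 27.2% of the other gene-end regions.

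The highest ratios belonged to genes of very different kinds: an interferon gene, a Hox gene, genes of endothelial and lymphoid cells, a matrix enzyme and several genes of general function. The region with the highest ratio, 17.3, lay at Ifit2, which encodes an interferon-induced RNA-binding protein. It lay at chr19:34577256-34577369, 778.5 bp beyond the 3′ end of the gene. Its lowest, median and highest lung values were 9.42, 11.2 and 43.8 RPM, against 0 RPM in each of the 4 brain libraries. The highest value was lung 50 nuclei replicate 3, and without it the lung mean was 10.8 RPM in place of 16.3 RPM. Set against the limit of 3 reads over the brain group, pooled lung RPM was at least 6.65-fold higher. The region at the start of Ifit2 had a ratio of 1.09, with 22.6 ± 10.6 RPM in lung (SD, n = 6) and 20.7 ± 5.44 RPM in brain (SD, n = 4). Another region, 249 bp from the start, had a ratio of 0.469, so the high ratio was not that of the promoter. Farther from the ends of Ifit2, a region 1654 bp from the start had a ratio of 3.42. Those 2366 and 7343 bp from the nearest end had 0.791 and 0.801.

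Hoxa5, a homeobox gene that sets position along the body axis and is needed for lung development, had the second highest ratio, 13.1, at chr6:52204376-52204673 over its start. Its lung values were 52.9, 63.5 and 75.4 RPM (lowest, median, highest), against 0, 4.30, 8.21 and 3.13 RPM in brain. All 6 lung libraries lay far above all 4 brain libraries, with a lung spread (SD 9.04 RPM) small beside the mean of 63.2 RPM. Hoxa4 had 2 member regions and Hoxb5 had 1, at ratios of 6.30, 2.99 and 6.27. Hoxb4 was the only other Hox region with the read minimum, at a ratio of 1.66, so 4 of 5 Hox regions were members. Hoxa5 and Hoxb5 belong to the same paralogous group, as do Hoxa4 and Hoxb4.

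Ace encodes angiotensin-converting enzyme, which sits on the surface of lung capillary endothelium. Its region with a ratio of 10.7, at chr11:105990287-105990495, lay 427 bp beyond the 3′ end. Lung values were 0, 24.5 and 55.8 RPM (lowest, median, highest), against 0, 0, 5.47 and 0 RPM in brain. The lung value of 0 was 50 nuclei replicate 3, so the tissues overlapped in that library. A second Ace region, whose centre lay 321 bp from the 3′ end, had a ratio of 2.67, and the region at the start of Ace had 1.63, with 13.6 ± 5.06 RPM in lung (SD, n = 6) and 7.98 ± 2.57 RPM in brain (SD, n = 4).

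Nedd9, a docking protein of focal adhesions, followed at a ratio of 10.7 at its start (chr13:41486960-41487457). It had 42.0, 59.6 and 96.9 RPM in lung (lowest, median, highest), against 2.51, 0, 10.9 and 6.26 RPM in brain, with no overlap. Osbpl2, an oxysterol-binding protein, had 30.5, 44.7 and 91.3 RPM in lung against 0, 2.15, 10.9 and 6.26 RPM in brain. In both genes each lung library stood above every brain library. Rbms2, an RNA-binding protein, and Tmem71, a transmembrane protein, also showed no overlap, with ratios of 8.68 and 8.11 and lung means of 27.2 ± 14.9 and 36.0 ± 14.7 RPM (SD, n = 6).

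The other regions among the 12 highest ratios overlapped between tissues. Cd2, an adhesion receptor of T cells, had 27.7, 12.4 and 10.4 RPM with 200 lung nuclei and 1.42, 0 and 0 RPM with 50, against 0 RPM in every brain library. Its signal was therefore almost confined to 3 of the 6 lung libraries, and pooled lung RPM was at least 6.59-fold above the limit of 3 reads over the brain group. Gimap6 had a similar pattern at chr6:48700793-48700883, 745 bp beyond its 3′ end, with 12.7, 13.2 and 13.0 RPM with 200 lung nuclei, 5.69, 0 and 1.83 RPM with 50, and 0 RPM in every brain library. Lox, the enzyme that crosslinks collagen and elastin, had 0, 23.7 and 56.6 RPM in lung (lowest, median, highest) and 0, 2.15, 0 and 6.26 RPM in brain. Tmem140, a transmembrane protein, and Ackr2, a receptor that scavenges inflammatory chemokines, had ratios of 7.98 and 7.97. Both overlapped with brain in 1 low lung library of 50 nuclei, at 2.93 RPM in Tmem140 and 2.84 RPM in Ackr2.

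**Figure D2:**
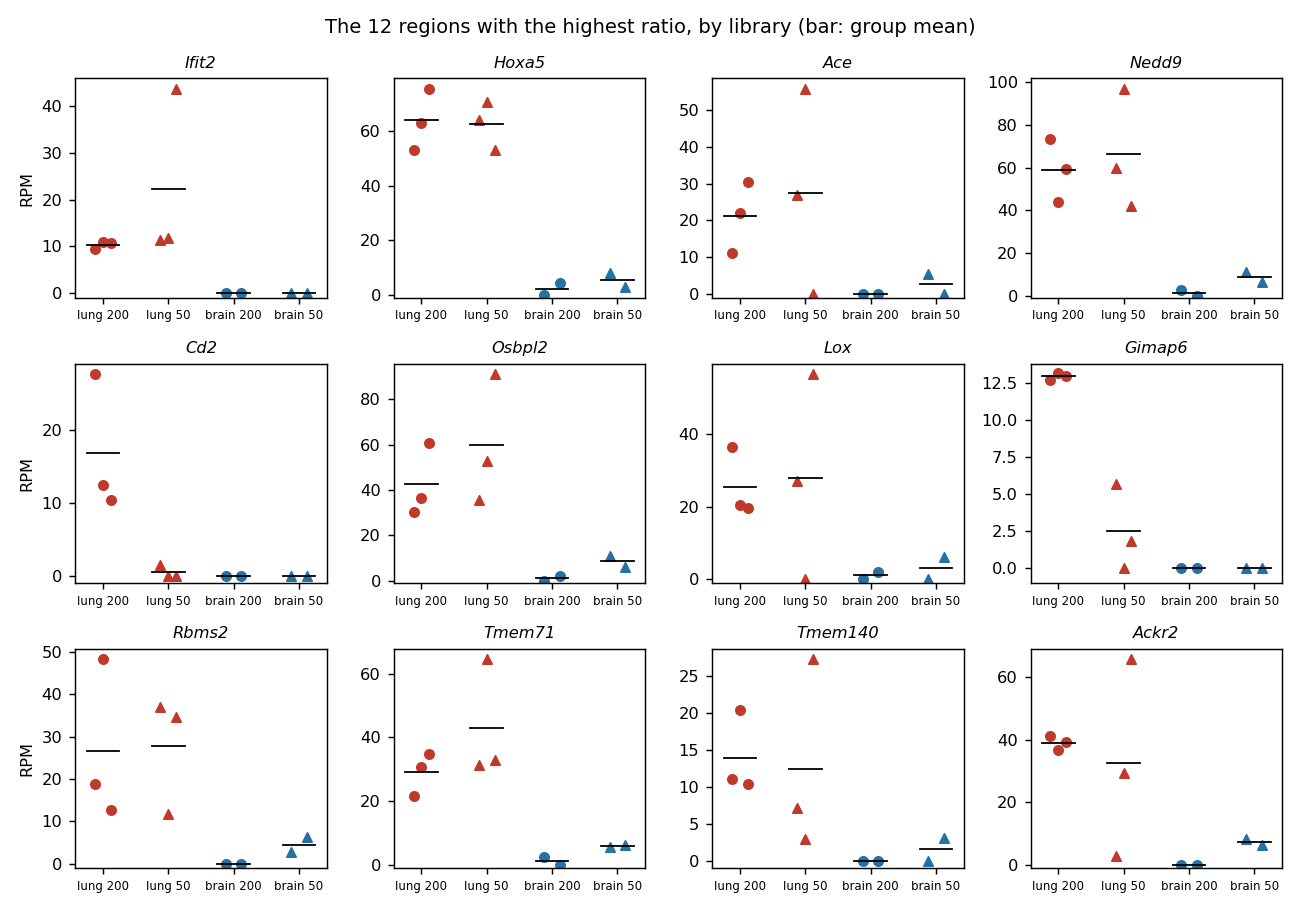
RPM in each of the 10 libraries (vertical, linear) for the 12 members with the highest ratio, by tissue and number of nuclei (lung in red, brain in blue, circles 200 nuclei, triangles 50 nuclei), with bars at group means. Brain values are at most 10.9 RPM, and the lung libraries of 50 nuclei scatter most, as in Ifit2 (43.8 RPM in 1 library) and Cd2 (0 RPM in 2 libraries).

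The 8 members with the highest lung level were also open in brain, and none of them overlapped between tissues. Rras, a small GTPase of vessel walls, had 355, 417 and 628 RPM in lung (lowest, median, highest), against 193, 189, 148 and 103 RPM in brain. Klf2 had 206, 273 and 341 RPM in lung, against 57.7, 66.6, 68.4 and 75.2 RPM in brain. Lmna, which encodes the A-type lamins of the nuclear envelope, had 170, 205 and 293 RPM in lung, against 32.6, 40.8, 73.9 and 37.6 RPM in brain. The gap between the lowest lung and the highest brain library was wide in each gene beside the spread within brain.

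The other 5 were a circadian repressor, a T-box factor, a phosphatase, a stress-induced factor and a class I histocompatibility gene. Nr1d1 (REV-ERBα, the circadian repressor) averaged 210 ± 55.3 RPM in lung against 81.8 ± 12.8 RPM in brain (SD, n = 6 and n = 4). Tbx3 averaged 203 ± 45.0 RPM in lung against 45.2 ± 11.5 RPM in brain, and Ctdsp1, a small phosphatase that acts on RNA polymerase II, 197 ± 47.8 RPM in lung against 72.4 ± 15.6 RPM in brain. The Ctdsp1 region lay at the 3′ end, while the region at its start had a ratio of 1.59. Atf3, a stress-induced factor of the ATF family, averaged 189 ± 44.4 RPM in lung against 59.1 ± 22.5 RPM in brain. H2-D1, which presents peptides to T cells, averaged 172 ± 27.0 RPM in lung against 61.6 ± 22.5 RPM in brain.

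Among cell-type lists, endothelial genes supplied more members than any other. Of 41 gene-end regions of endothelial genes with the read minimum, 19 (46.3%) were members, and the median log2 ratio of the 41 was 1.19, against 4.16% and -0.18 for all 9670 regions. The rule used these values, so the shares of this and the following lists are descriptions. Cdh5 (VE-cadherin, the adhesion protein of endothelial junctions) had the highest ratio, 7.53, with 12.8, 38.3 and 65.2 RPM in lung (lowest, median, highest) and 2.51, 2.15, 8.21 and 3.13 RPM in brain. The tissues did not overlap at Cdh5. Tmem100, a membrane protein downstream of BMP signalling, averaged 26.1 ± 17.4 RPM in lung against 4.005 ± 6.10 RPM in brain (SD, n = 6 and n = 4). Claudin-5 (Cldn5), which seals endothelial tight junctions and is also a hallmark of the blood-brain barrier, averaged 33.2 ± 21.0 RPM in lung against 5.47 ± 4.25 RPM in brain at the region farther from its start. Both overlapped, each in a lung library of 50 nuclei.

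The receptors Tie1, Tek, Robo4, Eng, Acvrl1 and Calcrl, the surface proteins Cd93, Clec14a, Thbd, Plvap, Esam and Icam1, and the ligands Dll4 and Sema3g were also members. Printed above, the Tie1 promoter averaged 79.6 ± 26.2 RPM in lung against 16.9 ± 5.12 RPM in brain with no overlap, and that of Calcrl 33.5 ± 22.9 RPM in lung against 10.2 ± 5.42 RPM in brain with overlap (SD, n = 6 and n = 4). Several standard endothelial genes were not members: the ratio was 2.18 at Flt1 and 1.37 at Kdr, which encode VEGF receptors, and 0.636 at Cd34. Summed over all 47 gene-end regions of the list, endothelial genes had 1406 to 1952 RPM in lung libraries and 735 to 865 RPM in brain libraries, so brain was well above 0.

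Of 26 regions of endothelial transcription factors, 7 were members (26.9%). Foxf1, a forkhead factor of lung endothelium and mesenchyme, led with a ratio of 6.12, at 20.6, 29.9 and 66.0 RPM in lung (lowest, median, highest) and 0, 6.45, 10.9 and 3.13 RPM in brain, with no overlap. Bcl6b, a zinc finger repressor, averaged 63.1 ± 34.2 RPM in lung against 14.6 ± 4.05 RPM in brain, followed by Klf2, described above, and by Elk3, Sox7 and Hhex (2 regions). In the KLF family 2 of 22 regions were members, Klf2 and a region 130.5 bp from the 3′ end of Klf6 with 14.6 ± 10.98 RPM in lung against 3.08 ± 2.64 RPM in brain, while both regions of Klf4 had ratios of 1.5 and 1.36. In the ETS family only Elk3, 1 of 17 regions (5.88%), was a member, near the 4.16% of all regions. Elk3 averaged 22.2 ± 17.8 RPM in lung against 5.32 ± 2.46 RPM in brain.

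Caveolae, the flask-shaped pits of endothelial and alveolar type 1 membranes, were represented by 4 of 13 regions. Cavin2, a coat protein of caveolae, had a ratio of 6.94, with 38.2, 124 and 143 RPM in lung (lowest, median, highest) and 17.6, 23.6, 5.47 and 12.5 RPM in brain. Ehd1, a membrane-remodelling ATPase, averaged 135 ± 16.8 RPM in lung against 23.4 ± 7.29 RPM in brain, and Cavin1 101 ± 20.9 RPM in lung against 34.3 ± 9.43 RPM in brain. None of these 3 regions overlapped between tissues. Caveolin-1 (Cav1) was a member at a ratio of 2.52.

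Signalling genes of vessels were a smaller share. In the BMP and TGF-β pathway 7 of 37 regions were members: the inhibitor of DNA binding Id3 (2 regions), the receptors Tgfbr2, Acvrl1 and Eng, the ligand Bmp7 and the inhibitor Smad6. Id3 averaged 70.5 ± 16.4 RPM in lung against 17.0 ± 10.6 RPM in brain at its region of higher ratio, and Tgfbr2 64.9 ± 10.9 RPM in lung against 18.2 ± 5.55 RPM in brain, both with no overlap, while Bmp7 averaged 17.8 ± 13.5 RPM in lung against 4.90 ± 4.31 RPM in brain and overlapped. In the Notch pathway 5 of 20 regions were members. The receptor Notch4 averaged 28.9 ± 11.2 RPM in lung against 7.61 ± 4.64 RPM in brain at its region of higher ratio and did not overlap. The target gene Hes1 averaged 75.6 ± 36.8 RPM in lung against 21.0 ± 7.60 RPM in brain, and the ligand Dll4 40.7 ± 18.7 RPM in lung against 14.0 ± 4.95 RPM in brain; both overlapped.

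Alveolar and general epithelial genes supplied fewer members than endothelial genes, from lists with fewer regions. By share, type 1 genes and general epithelium (50%) were above the 46.3% of endothelial genes, and type 2 genes (25%) below it. Of 11 regions of alveolar type 1 genes, 6 were members (54.5%). Gprc5a, a retinoic acid-induced receptor, averaged 66.3 ± 25.9 RPM in lung against 14.2 ± 4.86 RPM in brain. The water channel gene Aqp5 averaged 38.9 ± 21.5 RPM in lung against 10.7 ± 3.61 RPM in brain at a region 327.5 bp beyond its 3′ end. Neither region overlapped between tissues. Rtkn2 averaged 8.57 ± 8.19 RPM in lung against 0.684 ± 1.37 RPM in brain and overlapped. Ager, a standard type 1 marker, was not a member, with a ratio of 0.694. The lowest ratio among the 11 regions was 0.296, so that region was clearly higher in brain. Over all 16 gene-end regions of the type 1 list, sums overlapped, at 282 to 363 RPM in lung libraries and 208 to 372 RPM in brain libraries.

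Of 8 regions of alveolar type 2 genes, only Sftpd and Napsa were members. Sftpd (surfactant protein D, a collectin of airspace defence) had 7.48, 10.7 and 20.5 RPM in lung (lowest, median, highest), against 0, 2.15, 2.74 and 0 RPM in brain. Napsa, a protease that processes surfactant protein B, averaged 43.4 ± 12.5 RPM in lung against 13.2 ± 13.1 RPM in brain and overlapped. Sftpb had a ratio of 2.01 and Abca3 of 1.11, and the lowest ratio among the 8 regions was 0.68. Over all 11 gene-end regions of the type 2 list, sums overlapped, at 431.5 to 540.4 RPM in lung libraries and 459.7 to 504.2 RPM in brain libraries. In general epithelium 6 of 12 regions were members, led by Gata6, an endoderm and mesenchyme factor, at 41.5 ± 15.4 RPM in lung against 7.04 ± 6.65 RPM in brain and keratin 19 (Krt19) at 13.0 ± 8.84 RPM in lung against 2.87 ± 3.36 RPM in brain. Summed over the 16 gene-end regions of the general epithelial list, lung libraries had 267 to 363 RPM and brain libraries 176 to 241 RPM. None of 4 airway regions was a member, too few to set against the 4.16% of all regions.

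In lung mesenchyme 5 of 11 regions were members: Foxf1, the T-box factors Tbx2 and Tbx3, Tcf21 and elastin (Eln). Tbx2 averaged 48.3 ± 23.3 RPM in lung against 8.02 ± 5.58 RPM in brain without overlap, and Tcf21, a factor of fibroblast precursors, 10.2 ± 6.31 RPM in lung against 1.22 ± 1.43 RPM in brain with overlap. Summed over the 13 gene-end regions of the list, lung libraries had 347 to 549 RPM and brain libraries 128 to 197 RPM. None of 3 smooth muscle and pericyte regions was a member, too few to set against the 4.16% of all regions.

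Lymphoid genes had 3 members of 7 regions, all at T cell genes: Cd2, Cd3d and Cd28. Cd3d, a subunit of the T cell receptor complex, averaged 18.4 ± 16.4 RPM in lung against 3.95 ± 1.74 RPM in brain at a region 383.5 bp from its 3′ end. The costimulatory receptor Cd28 averaged 8.35 ± 8.003 RPM in lung against 2.04 ± 2.47 RPM in brain. Both overlapped, as lung 50 nuclei replicate 2 was at 0 in each. The lowest ratio among the 7 lymphoid regions was 0.947. The sums of the 9 gene-end regions of lymphoid genes overlapped, at 75.35 to 160.7 RPM in lung libraries and 70.89 to 87.69 RPM in brain libraries. No myeloid region was a member, 0 of 7, too few to differ from the 4.16% of all regions. The sums of the 9 gene-end regions of myeloid genes overlapped at 138 to 223 RPM in lung libraries and 133 to 189 RPM in brain libraries.

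Lists of brain cell types and of genes used in all cells were described in the same way. Of 30 housekeeping regions none was a member, and their median log2 ratio was -0.06, against 4.16% and -0.18 for all 9670 regions. The read minimum was set on lung libraries, and it kept 1 of 13 neuronal, 3 of 6 oligodendrocyte and 1 of 3 astrocyte gene-end regions. None of these 5 regions was a member, and nothing is read from so few. The neuronal sum of 13 gene-end regions was 10.9 to 63.7 RPM in lung libraries and 299 to 429 RPM in brain libraries. The microglial list had 1 member of 2 regions: Olfml3, a secreted matrix protein also made outside the brain, averaged 16.8 ± 9.34 RPM in lung against 4.095 ± 4.63 RPM in brain and overlapped. The ratios of these 2 microglial regions were 1.64 and 3.49. The sum over all 3 gene-end regions of the list ran the other way, with a small overlap. It was 17.1 to 49.3 RPM in lung libraries and 46.5 to 68.9 RPM in brain libraries. The oligodendrocyte sum of 6 regions was 8.80 to 120 RPM in lung libraries and 165 to 232 RPM in brain libraries. The astrocyte sum of 3 regions overlapped, at 64.6 to 126 RPM in lung libraries and 76.6 to 138 RPM in brain libraries, as did that of 4 smooth muscle and pericyte regions, at 26.4 to 74.8 RPM in lung libraries and 55.9 to 84.8 RPM in brain libraries. The neuronal and oligodendrocyte sums were thus higher in every brain library. The endothelial, general epithelial and mesenchymal sums include regions that the rule chose for being higher in lung.

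**Figure D3:**
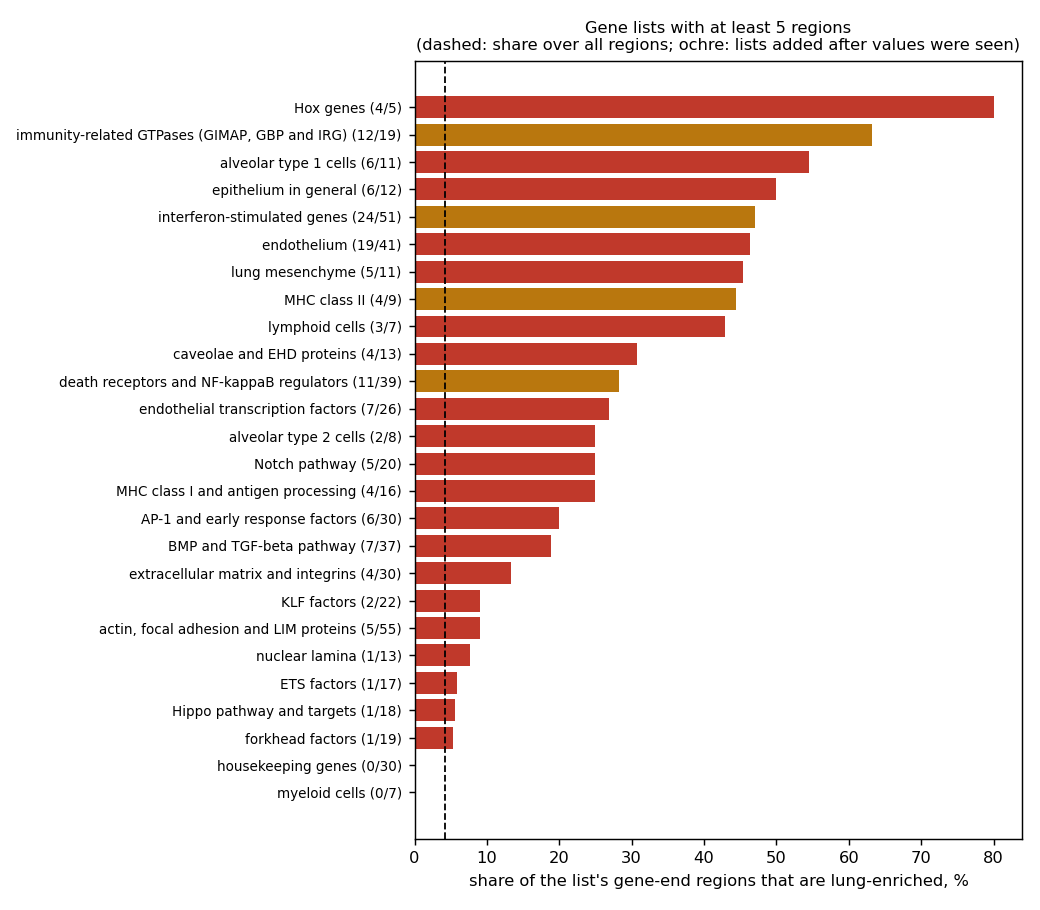
Share of each list's gene-end regions with the read minimum that were members (horizontal, percent), with member and region counts in brackets, for the reported lists of at least 5 regions; the dashed line is the 4.16% of all regions and ochre bars are lists added after values were seen. Hox genes (4 of 5) stand at the top, and housekeeping and myeloid genes at 0.

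Outside the cell-type lists, interferon-stimulated genes supplied the most members. The lists of interferon-stimulated genes, of immunity-related GTPases, of MHC class II and of death receptors and NF-κB regulators were added after members had been seen, so their shares describe the members and nothing more. Of 51 regions of interferon-stimulated genes, 24 (47.1%) were members, among them the sensors and effectors Rsad2, Bst2, Eif2ak2, Ifitm3, Dhx58, Isg20, Zbp1 and Samhd1 and the factor Irf7. Lgals9 had 61.6, 88.7 and 234 RPM in lung (lowest, median, highest), against 10.0, 23.6, 38.3 and 6.26 RPM in brain. Phf11d, a nuclear PHD finger protein, was low, at 7.73 ± 3.99 RPM in lung against 0.537 ± 1.07 RPM in brain, and overlapped. The promoters printed above averaged 24.6 ± 8.48 RPM in lung against 4.72 ± 3.87 RPM in brain at Rsad2, and 65.2 ± 35.1 RPM in lung against 16.2 ± 7.31 RPM in brain at Bst2, both without overlap. Other genes of the list were not members, among them Isg15 (ratio 1.67) and Ifih1 (0.782).

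The GIMAP, GBP and IRG GTPases, which act in lymphocyte survival and in defence against intracellular pathogens, had the highest share among the added lists, 12 members of 19 regions. A run of 6 member regions at Gimap8, Gimap9, Gimap6 (2 regions), Gimap1 and Gimap5 lay within chr6:48647074-48746321, and Gbp8, Gbp4 and Gbp10 were neighbours on chromosome 5. Of these, the Gimap6 promoter was the most even: 23.8, 30.9 and 38.3 RPM in lung (lowest, median, highest), against 0, 4.30, 5.47 and 3.13 RPM in brain. Gbp4 averaged 23.4 ± 17.0 RPM in lung against 4.14 ± 3.71 RPM in brain, and Gm12250, an IRG-family gene, 17.1 ± 16.3 RPM in lung against 3.26 ± 1.24 RPM in brain, both with a lung library at 0. Genes of these families are near-copies of one another, and the sources used here do not say how reads that fit several copies were counted.

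Antigen presentation was split between its 2 classes. Among MHC class II genes, 4 of 9 regions were members. Cd74, the invariant chain, had 41.1, 67.7 and 96.7 RPM in lung (lowest, median, highest), against 22.6, 12.9, 13.7 and 3.13 RPM in brain. H2-Aa averaged 41.2 ± 20.3 RPM in lung against 8.83 ± 8.81 RPM in brain, and H2-Eb1 50.6 ± 18.7 RPM in lung against 16.4 ± 5.41 RPM in brain. None of these 3 overlapped. Among class I genes and their processing factors, 4 of 16 were members: H2-D1, H2-K1, H2-T24 at 16.4 ± 14.8 RPM in lung against 4.33 ± 1.72 RPM in brain, and the class I transactivator Nlrc5 at 12.5 ± 7.58 RPM in lung against 3.37 ± 3.48 RPM in brain. The class I genes are also close paralogs.

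Death receptors and regulators of NF-κB gave 11 members of 39 regions. Fas, the receptor that triggers apoptosis, had 3 member regions, as only Itprip, a regulator of the inositol trisphosphate receptor, had besides. The Fas region over the start averaged 32.0 ± 15.6 RPM in lung against 7.66 ± 2.85 RPM in brain, the region 603 bp from the start 13.1 ± 11.02 RPM in lung against 4.45 ± 5.54 RPM in brain, and the region 471.5 bp from the 3′ end 27.5 ± 19.1 RPM in lung against 5.64 ± 1.87 RPM in brain. The 3′ region alone did not overlap between tissues. The 3 Itprip regions, all within 661.5 bp of its start, averaged 20.7, 21.6 and 43.6 RPM in lung against 3.90, 4.70 and 12 RPM in brain. Casp8, the initiator caspase downstream of Fas, averaged 32.9 ± 22.0 RPM in lung against 6.73 ± 2.46 RPM in brain, and the receptor Cd40 15.0 ± 13.0 RPM in lung against 2.66 ± 3.56 RPM in brain.

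Early response genes, which are switched on within minutes of stress or handling, gave 6 members of 30 regions. Zfp36, which destabilises inflammatory mRNAs, averaged 68.9 ± 26.6 RPM in lung against 10.2 ± 7.61 RPM in brain at a region 227 bp from its 3′ end, and Ier2 116 ± 78.5 RPM in lung against 22.3 ± 8.56 RPM in brain. Atf3 is described above, and the 3 other members were Zfp36l1, Btg2 and Ier3. The core AP-1 genes Fos (1.17) and Jun (1.43) and the early gene Egr1 (0.616) were not members.

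Cytoskeletal and matrix lists had shares of 5.56 to 13.3%, against 4.16% of all regions. Members were 5 of 55 actin, focal adhesion and LIM regions, 4 of 30 matrix and integrin regions, 1 of 13 lamina regions and 1 of 18 Hippo regions. Rhoc, a small GTPase of cell movement, averaged 95.1 ± 32.1 RPM in lung against 15.7 ± 5.64 RPM in brain, and Arhgap31, which inactivates Rac and Cdc42, 159 ± 68.0 RPM in lung against 43.4 ± 20.6 RPM in brain, neither with overlap. The Rhoc region also lay within 1000 bp of an end of Mov10. Arhgap45 averaged 16.7 ± 12.5 RPM in lung against 3.62 ± 4.25 RPM in brain. Itga1, the α1 subunit of a collagen receptor, averaged 70.5 ± 15.0 RPM in lung against 20.7 ± 10.2 RPM in brain without overlap. The laminin gene Lamb2, the integrin gene Itga2, the annexin gene Anxa2, the actin-binding Tagln2 and Parva, and Tead4 of the Hippo pathway were members with lung means between 22.3 and 44.0 RPM. In all, 140 members fell in at least 1 of the 37 lists and 262 in none.

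The members differed from the other 9268 gene-end regions in features that the rule did not use, given here as a description. Their median width was 221 bp, against 321 bp. Strand was known for 287 members, of which 57 (19.9%) lay nearest to the 3′ end of the gene, against 3.58% of 7507 other regions. The 3′ members included those of Ifit2, Ace, Zfp36, Rhoc and Ctdsp1. Another gene end lay within 1000 bp in 6.22% of members, against 17.4% of other regions.

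Their promoters were also poorer in CpG. Over the 154 member windows the median ratio of observed to expected CpG, given the window's C and G content, was 0.487, against 0.813 in 6016 windows under other gene-end regions and 0.384 in all 32851 windows of the table. The ratio was below 0.4 in 70 member windows (45.5%), 4.44% of other windows and 51.4% of all windows. Within lists the level varied: the 7 GTPase windows had a median of 0.232, 15 windows of interferon-stimulated genes 0.310, 9 of endothelial genes 0.310 and 6 of death receptor and NF-κB genes 0.729. Klf2, printed above, had 0.889 and 32 CpG in its 300 bases, and Lgals9 0.160 and 4.

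**Figure D4:**
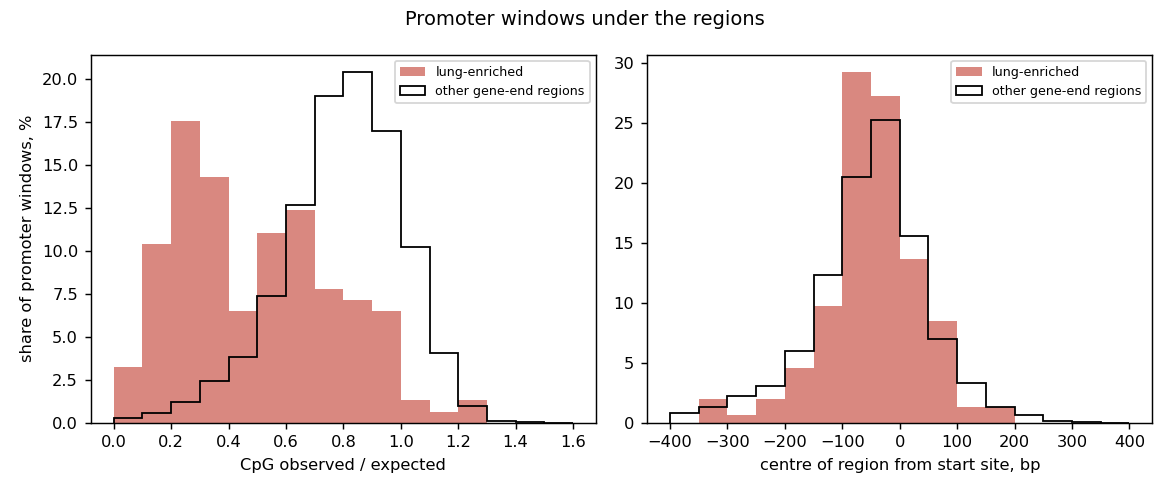
Promoter windows under members (red, 154) and under other gene-end regions (black line, 6016), as percent of windows: left, observed over expected CpG, with member values spread below the peak of the others (medians 0.487 and 0.813); right, distance in bp of the region's centre from the start site, with medians of -47 and -43 bp.

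Motif letters were searched on both strands of these 300-base windows. The ISRE letters were in 16 member windows (10.4%), 2.54% of other windows and 3.44% of all windows of the table; this motif was chosen after the interferon genes had been seen. Of the 16 windows, 8 belonged to the interferon-stimulated list and 1 to the GTPase list. Without those 2 lists, the share was 5.3% of 132 member windows and 2.45% of 5993 other windows. Within the interferon-stimulated list, 8 of 15 member windows and 4 of 19 non-member windows held the letters. The ETS letters ACAGGAA were in 17.5% of member windows, 6.08% of other windows and 8.67% of all windows. Of the 7 GTPase member windows, 4 held them.

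Some letters were rarer in member windows than in other windows. The ETS letters with a CpG, CCGGAA, were in 12.3% of member windows, 33.3% of other windows and 14.9% of all windows. The GC box GGGCGG was in 52.6%, 73.4% and 35.7%, so members held it more often than all windows of the table did. CCAAT, bound by NFY, was in 27.9%, 41.4% and 37.4%, and CACGTG in 4.55%, 11.6% and 7.15%. The AP-1 letters TGANTCA were in 9.09% of member windows, 3.74% of other windows and 7.81% of all windows, and the NF-κB letters (GGG, any 2 bases and TTTCC), also chosen after values were seen, in 3.90%, 1.5% and 1.63%. The ETS core GGAAG, with which both ETS motifs above can overlap, was in 79.9% of member windows and 76.4% of other windows. The CpG content differed between the sets compared, and a match is a description of letters, not a binding site.

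Regions near the same genes were looked at to see whether the difference was limited to the gene end. Of 1113 further autosomal regions whose nearest gene was a member gene but that lay over 1000 bp from its ends, 397 (35.7%) had a ratio of at least 2.5 and the median log2 ratio was 0.92. Among the 22166 autosomal regions over 1000 bp from gene ends whose nearest gene was no member gene, 4493 (20.3%) had such a ratio and the median was 0.22.

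The lung-over-brain contrast chose the members, so the fit of that contrast across all 37464 regions restates the rule for them and is no test. With edgeR's quasi-likelihood fit and Benjamini-Hochberg adjustment, 139 of the 402 members and 3.88% of all regions (1.94% of the 9670 gene-end regions) were past an adjusted p of 0.05 as higher in lung, and nothing is read from the members' count. The median log2 fold was 1.85 for members and -0.11 for all regions tested. Both counts moved together when libraries were left out. Without brain 200 nuclei replicate 1, 67 members and 1.65% of all regions were past the threshold, without brain 50 nuclei replicate 1 it was 92 and 1.92%, and without brain 50 nuclei replicate 2 it was 70 and 1.54%. Without lung 50 nuclei replicate 3 it was 249 and 8.59%, and without lung 50 nuclei replicates 2 and 3 together it was 295 and 12.4%.

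The rule used the mean brain RPM but not the difference between capture sizes in brain. No member was called in brain between 200 and 50 nuclei by edgeR's quasi-likelihood test at an adjusted p of 0.05, nor was any of the 37464 regions (0%). DESeq2 called none either. At an unadjusted p of 0.05, edgeR gave 12 members (2 higher and 10 lower with 200 nuclei) and 1.07% of all regions, and DESeq2 gave 17 members and 1.30% of all regions. The members' median log2 fold was -0.24, against -0.05 over all regions, and it rested on single libraries. Without brain 200 nuclei replicate 1 the 2 medians were -0.001 and -0.04, without brain 50 nuclei replicate 1 they were 0.03 and 0.02, and without brain 200 nuclei replicate 2 they were -0.63 and -0.17. At the members' brain levels 1 read is worth 2.15 to 3.13 RPM.

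In lung, edgeR called no member and no region (0%) between 200 and 50 nuclei, and 16 members passed an unadjusted p of 0.05, all higher with 200 nuclei; the share of all regions past it, in either direction, was 9.42%. The members' read minimum in the libraries of 200 nuclei touches this comparison. The members' median log2 fold was 0.17, against 0.44 over all regions, and 246 members (61.2%) were above 0. With DESeq2 the medians were -0.12 for members and 0.17 for all regions, and 168 members (41.8%) were above 0. DESeq2 called no member, and 16 passed unadjusted, with 8.32% of all regions. The members' median was lower than that of all regions with both methods, but all regions were not held to the read minimum. With edgeR's default filter the medians were 0.03 and 0.21, and without lung 50 nuclei replicates 2 and 3 together they were 0.15 and 0.12. Without lung 50 nuclei replicate 1, edgeR called 3 members as higher with 200 nuclei, at Garre1 (log2 fold 2.53, adjusted p = 0.0239), Fbxo30 (7.37, adjusted p = 0.0464) and the Cldn5 region nearer its start (2.30, adjusted p = 0.0491); both lung libraries of 50 nuclei left in that fit were at 0 in Fbxo30, so its fold depends on the prior count. In that fit 2.29% of all regions were called higher with 200 nuclei, against 0.746% of members.

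The tissue-by-size interaction, which tests whether the size difference differed between lung and brain, called no member and no region (0%) with edgeR. Unadjusted, 13 members passed with edgeR, against 4.37% of all regions, and 11 with DESeq2, against 4.20%. In 12 of the 13 the 200-over-50 log2 fold was higher in lung than in brain. Either tissue could hold the larger fold: it was -0.39 in lung and -4.03 in brain at Midn, but 2.29 and -0.24 at the Cldn5 region nearer its start. The members' median interaction was 0.34, against 0.55 over all regions. Without brain 200 nuclei replicate 1 the medians were 0.16 and 0.55, and without replicate 2 they were 0.92 and 0.72. Taken within each size, the ratio of lung to brain had a median of 3.67 in libraries of 200 nuclei and 3.43 in those of 50 nuclei over the 402 members, against 0.890 and 0.882 over all gene-end regions with the read minimum. It was at least 2.5 in 310 members with 200 nuclei and in 306 with 50 nuclei. It was above 1 in all 402 with 200 nuclei, and below 1 with 50 nuclei in 3, at Cd69, Cldn5 and Hoxa4.

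**Figure D5:**
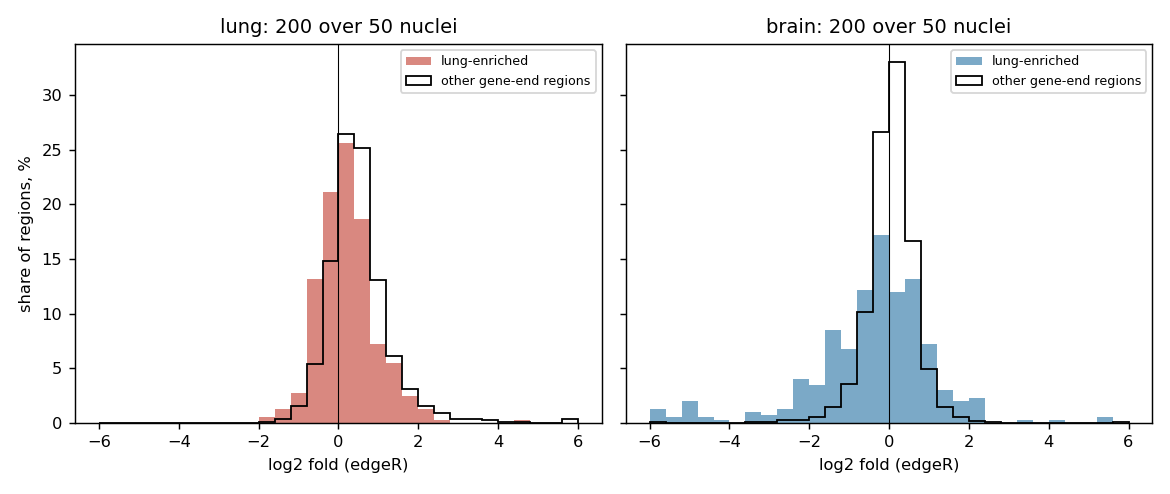
Distribution of edgeR log2 folds of 200 over 50 nuclei (horizontal; values beyond 6 either way are drawn at 6) in lung (left) and brain (right), as percent of regions, for members (filled) and other gene-end regions (line). Members spread more widely than the others in brain, where their levels are low, and no member passed the adjusted threshold in either tissue.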

How the data were processed

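Chromatin accessibility was measured by ATAC-seq in 10 libraries of laser-captured nuclei from mouse lung and brain. The authors deposited 1 table of raw counts per region and library, not normalized. Per the submitters' processing notes, mm10 was the genome build. The same notes list, without roles, Bowtie2 2.4.5, MACS2 2.2.7.1, Trimmomatic 0.36, SAMtools 1.14, Picard, bcl2fastq 2.20, R 4.1.0 and deepTools 3.1.3. Whether regions were called per library or on pooled reads, what was counted (reads or fragments), and any removal of duplicates or Tn5 shift is not given in the sources used here. If PCR duplicates remain, they widen the spread between libraries of few nuclei.

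RPM was computed over 37511 nuclear regions. Gene ends came from RefSeq GRCm38.p6, a table without strand; strand and promoter sequence came from the RefSeq promoter table, which held 269 of the 379 member genes. Coordinates are as the deposited table gives them. A region's gene is the protein-coding gene whose end is nearest to its centre. Counts were tested with edgeR 4.0.16 (quasi-likelihood, TMM, regions with at least 10 reads in all, 4 tissue-by-size groups with 1 estimate of spread, Benjamini-Hochberg over all 37464 regions) in R 4.3.3; DESeq2 1.42.0 was an alternative, and the fits were tested on simulated data. Pairs of replicate libraries differed by more than sampling noise (chi-square per degree of freedom 1.69 to 10.8), so none was counted as a duplicate. Limits from counts of 0 cover counting error only.

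Values are given for the 12 members with the highest ratio, the 8 with the highest lung level, the 3 highest in each list, the regions nearest the threshold, genes with 3 member regions, and the 5 members with the lowest and the highest brain level. 1 member that this rule names and 1 list are not reported here. Members named beside these, and the printed sequences, were chosen after values were seen. The members, lists, motifs and tests were chosen with earlier results of these data known; 4 lists and 2 motifs were added after the members had been seen. Alternatives were other pseudocounts, scalings, filters and distances, a replicate block, DESeq2 and leaving out each library.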

Additional observations from a re-analysis of the deposited data

Results flagged for a closer look

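For the 20 members given by library and 2 library summaries, each tissue was searched for a library far from the others (Dixon's criterion). In 7 of 44 groups there was one. No rate expected by chance is set beside this. The groups reuse the same 10 libraries, and the members were picked for high ratios or levels. A group with a single value above 0, as in Ace and Tmem140 in brain, passes the criterion by construction. In the Ifit2 region, lung 50 nuclei replicate 3 had 43.8 RPM and the other 5 lung libraries 9.42 to 11.7 RPM. In Tmem71, lung 50 nuclei replicate 2 had 64.6 RPM and the others 21.6 to 34.8 RPM. In Lmna, lung 50 nuclei replicate 2 had 293.5 RPM and the others 169.6 to 209.9 RPM. In the Ace region beyond the 3′ end, brain 50 nuclei replicate 1 had 5.47 RPM and the other 3 brain libraries 0 RPM. In Tmem140, brain 50 nuclei replicate 2 had 3.13 RPM, a single read, and the others 0 RPM. In H2-D1, brain 200 nuclei replicate 1 had 95.3 RPM and the others 49.3 to 51.6 RPM. The share of members with a read was 77.6% in brain 200 nuclei replicate 1 and 89.0 to 89.8% in the other brain libraries.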

How the results depend on the processing

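The rule's count of 402 was 223 with a pseudocount of 5 RPM, which lowers the ratio of weak regions. It stayed between 305 and 511 under the other settings and between 376 and 463 when 1 library was left out. Libraries of 200 nuclei alone gave 511 regions, 310 of them shared with the 402, and libraries of 50 nuclei alone 496, of which 306 were shared. The 139 members past the threshold as higher in lung over brain, a contrast the rule used, were 196 with DESeq2 and 67 to 249 with 1 library left out. Leaving out lung 50 nuclei replicates 2 and 3 together, a setting chosen after seeing the data, gave 295. For 200 over 50 nuclei in lung, 0 to 3 members were called with 1 library left out. In brain, and for the interaction, 0 members were called under every setting run. Same-numbered libraries of 200 and 50 nuclei did not deviate together (correlations across regions of -0.003 to 0.019 in lung and -0.030 in brain). No pairing was seen, but with few reads per region these correlations cannot exclude one. In brain, 2 libraries per size give a single value that differs only in sign. With a replicate block 126 members were called in lung over brain and 0 in each size comparison and the interaction. Of the members named with values, 1 changed direction: the Fas region 603 bp from its start had a log2 fold of lung over brain of 1.87, which was -0.998 without lung 50 nuclei replicate 1 and 3.70 at most, without brain 50 nuclei replicate 2. These folds belong to the contrast that chose the members and are no test of them; the remaining alternatives for 86 such values kept their side of the threshold 1209 times, passed it newly 106 times and lost it 48 times. The cause of these shifts was not tested. The brain libraries, where 1 read is worth 2.15 to 3.13 RPM, limit every ratio of a weak region.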
